A study of Rattus norvegicus with 138 samples.

Results

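Counts are described here for 6 passenger strands that carry a precursor number in their names: let-7a-1-3p, let-7c-2-3p, miR-125b-2-3p, miR-24-2-5p, miR-181a-1-3p and miR-219a-1-3p. They are 6 of 471 mature rat miRNAs counted in serum, in 36, 36, 34 and 32 libraries taken 1, 3, 6 and 12 months (mo) after surgery. The 6 were selected on their change in counts between sampling months, so their month-to-month values are given as a description, with no p-value, and nothing is read from whether they pass a test. The rows of let-7a-1-3p and let-7c-2-3p hold the same value in every library. This pair is therefore counted once, under the name let-7a-1-3p, which leaves 5 distinct passenger strands.

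The serum came from male Sprague-Dawley rats that were 3 months old when 4 metal pellets were placed in the calf muscle, 2 in the gastrocnemius of each limb. All rats of a group carried 1 metal: tantalum (Ta), which the series text calls inert in muscle and uses as the control for surgery, or else lead (Pb), copper (Cu), nickel (Ni), tungsten (W), iron (Fe), depleted uranium (DU), aluminium (Al) or cobalt (Co). The Ta rats thus also had surgery and pellets, and no group without pellets was analysed here. A metal and a month make a group, 35 in all. Groups hold 4 libraries each, but W and Ta have only 3 at 6 mo, and Ni was not analysed here at 12 mo. The series text gives 8 rats per group, sampled at every time point, but the labels do not tie a library to a rat. Libraries were therefore treated as independent, and the p-values measure only the spread between these samples.

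A miRNA precursor is a hairpin that is cut into a short duplex. One strand, the guide, is loaded into an Argonaute protein and pairs with messenger RNAs through its seed, while the other, the passenger strand, is mostly discarded and is usually far scarcer. Where several genes make the same guide, the guide reads cannot be assigned to a gene, but the passenger strands of the copies often differ in sequence. The number in a name such as miR-125b-2-3p records this: it points to 1 of the precursor genes. In serum, miRNAs are carried in vesicles or bound to proteins and stem from many tissues and from blood cells.

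The mature sequences, from RefSeq on the rat assembly GRCr8, show which rows can be told apart. Each is written 5′ to 3′, with the seed (bases 2 to 8) in capitals. First come the 6 passenger strands:
let-7a-1-3p: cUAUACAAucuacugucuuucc
let-7c-2-3p: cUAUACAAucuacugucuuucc
miR-125b-2-3p: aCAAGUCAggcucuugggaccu
miR-24-2-5p: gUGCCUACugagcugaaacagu
miR-181a-1-3p: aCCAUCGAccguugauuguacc
miR-219a-1-3p: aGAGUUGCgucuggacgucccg
The first 2 sequences are the same 22 bases, so a read of these bases alone cannot tell their precursors apart. Among the 5 distinct strands no seed is shared.

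On GRCr8, let-7a-1-3p lies in Mirlet7a1 at chr17:16320196-16320217 (plus strand) and let-7c-2-3p in Mirlet7c2 at chr7:118683684-118683705 (plus strand). The others lie in Mir125b2 at chr11:29732627-29732648 (plus), Mir24-2 at chr19:40859517-40859538 (minus), Mir181a-1 at chr13:52037121-52037142 (plus) and Mir219a1 at chr20:4831641-4831662 (plus). The hairpins of the let-7 pair are shown because they bear on the identical rows. Both mature arms are in capitals:
Mirlet7a1: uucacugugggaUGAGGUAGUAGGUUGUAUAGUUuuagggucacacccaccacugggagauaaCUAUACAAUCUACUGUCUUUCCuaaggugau
Mirlet7c2: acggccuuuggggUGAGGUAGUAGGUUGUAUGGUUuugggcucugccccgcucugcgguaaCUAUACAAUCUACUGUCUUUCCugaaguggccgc
These hairpins differ in their loops and flanks but share an unbroken run of 26 bases around the passenger arm: the 22-base arm, 3 bases before it and 1 after. Their guide arms differ at 1 position, A19G from let-7a-5p to let-7c-5p, counted from the 5′ end.

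The guide strands against which the members were set are shown for the same reason, since they come from more than 1 gene:
let-7a-5p: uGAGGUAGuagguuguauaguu
let-7c-5p: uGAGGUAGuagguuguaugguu
miR-125b-5p: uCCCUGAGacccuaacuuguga
miR-24-3p: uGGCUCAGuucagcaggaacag
miR-181a-5p: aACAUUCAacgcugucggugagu
miR-219a-5p: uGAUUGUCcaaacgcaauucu
In the RefSeq table let-7a-5p, let-7c-5p, miR-24-3p and miR-181a-5p each stand at 2 precursors. It lists miR-125b-5p only at Mir125b2 and miR-219a-5p only at Mir219-2. Yet Mir125b1 and Mir219a1, whose passenger strands are also given here, share these guides. A ratio of a numbered passenger strand to any of these guides is therefore not the strand ratio of 1 hairpin.

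The passenger strands of the sister genes, which share the guide, can be separated from the members by sequence:
miR-125b-1-3p: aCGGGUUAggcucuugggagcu
miR-24-1-5p: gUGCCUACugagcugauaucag
miR-181a-2-3p: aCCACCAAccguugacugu
miR-219a-2-3p: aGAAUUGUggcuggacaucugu
The seed of miR-24-1-5p is that of miR-24-2-5p, and the other sisters have other seeds. In the count table the let-7 seed UAUACAA is shared by 5 rows, let-7a-1-3p, let-7c-2-3p, let-7b-3p, let-7f-1-3p and miR-98-3p, and the seed CCAUCGA by miR-181a-1-3p and miR-181c-3p.

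Library totals ranged from 518 to 6406599 counts (median 685384.5), and 6 libraries had under 20000 counts, 4 of them at 3 mo. Median totals at 1, 3, 6 and 12 mo were 1114449, 286094, 1302182.5 and 558752.5 counts, and the median numbers of miRNAs with a count were 216, 99.5, 170 and 186.5, so 3 mo was lowest in both. Values are given as counts or as CPM, the usual per-library rate of counts, here with the library size scaled by TMM factors (edgeR's trimmed mean of M values). Of 22929 values above 0 in the table, 0 equal 1, 520 equal 2 and 336 equal 3, so a listed 0 can stand for a single read or none. "With a count" below means a listed value of 2 or more, and no floor was set for a listed 0.

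The let-7 passenger strand, from precursors of the differentiation-promoting let-7 family, was seldom listed but reached high values at 3 mo. Libraries with a count numbered 13, 15, 14 and 19 at 1, 3, 6 and 12 mo. The lowest value was 0 CPM at each of the 4 time points, the medians were 0, 0, 0 and 30.8 CPM, and the highest values 121, 2167, 2827 and 232 CPM. In libraries with a count, the medians were 19.97, 472, 50.6 and 56.5 CPM in the same order. The share of libraries with a count was thus similar at 1 and 3 mo (36.1%, 95% Wilson interval 22.5 to 52.4, against 41.7%, 27.1 to 57.8), while the values in those libraries were higher. The highest 3 mo values were 2167 CPM in Fe replicate 4, 1938 and 1162 in Ni replicates 4 and 1, 1503 in Cu replicate 1, and 1105 and 1058 in Co replicates 4 and 1. In each of these 4 metals another replicate stood at 0, so replicates of 1 group lay at both ends of the range.

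The strand miR-125b-2-3p, from a precursor whose guide is known for its roles in blood cell formation, was the most often listed member. Its count was above 0 in 35 libraries at 1 mo, then in 10, 27 and 29. The medians were 251, 0, 146 and 154 CPM, the highest values 1610, 906, 2078 and 844 CPM, and the lowest 0 at every time point. No library held between 1 and 10 counts of it: the lowest value above 0 was 11 counts, and the median where present was 165. Between 1 and 3 mo the share of libraries with a count was lower in 9 of 9 metals, Ta included, and between 3 and 6 mo it was higher in 8 of 9 (equal in the ninth).

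The strand miR-24-2-5p, from a gene cluster with miR-23a and miR-27a that is broadly active in vascular and blood cells, was found in 34, 9, 16 and 22 libraries of the 4 successive time points. Its medians were 110, 0, 0 and 42.9 CPM and its highest values 1677, 1193, 201 and 278 CPM, with a lowest value of 0 at each time point. The share with a count was lower at 3 than at 1 mo in 9 of 9 metals. Unlike miR-125b-2-3p, it was still missing from 18 of 34 libraries at 6 mo, though whether the 2 strands differ in this was not tested.

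The strand miR-181a-1-3p comes from a precursor of miR-181a, a guide that tunes T-cell receptor signalling. It was scarce, with a count in 23, 3, 12 and 5 libraries in the order of the months. The medians were 11.2 CPM at 1 mo and 0 at the other time points, and the highest values were 46.5, 64.0, 59.7 and 46.6 CPM. All 3 libraries with a count at 3 mo were deep, at 2062074 to 4884425 counts, against a median of 276078 in the 33 without.

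The scarcest member was miR-219a-1-3p, whose precursor also gives miR-219a-5p, a guide best known from oligodendrocytes and neurons. It was listed in 16 libraries at 1 mo and in only 2, 5 and 2 at the later time points. All 4 medians were 0 CPM, and the highest values were 27.2, 124, 25.9 and 10.8 CPM. In 13 of the 25 libraries with a count it had fewer than 10 counts, and the value of 124 CPM rests on 104 counts in DU replicate 1 at 3 mo.

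**Figure D1:**
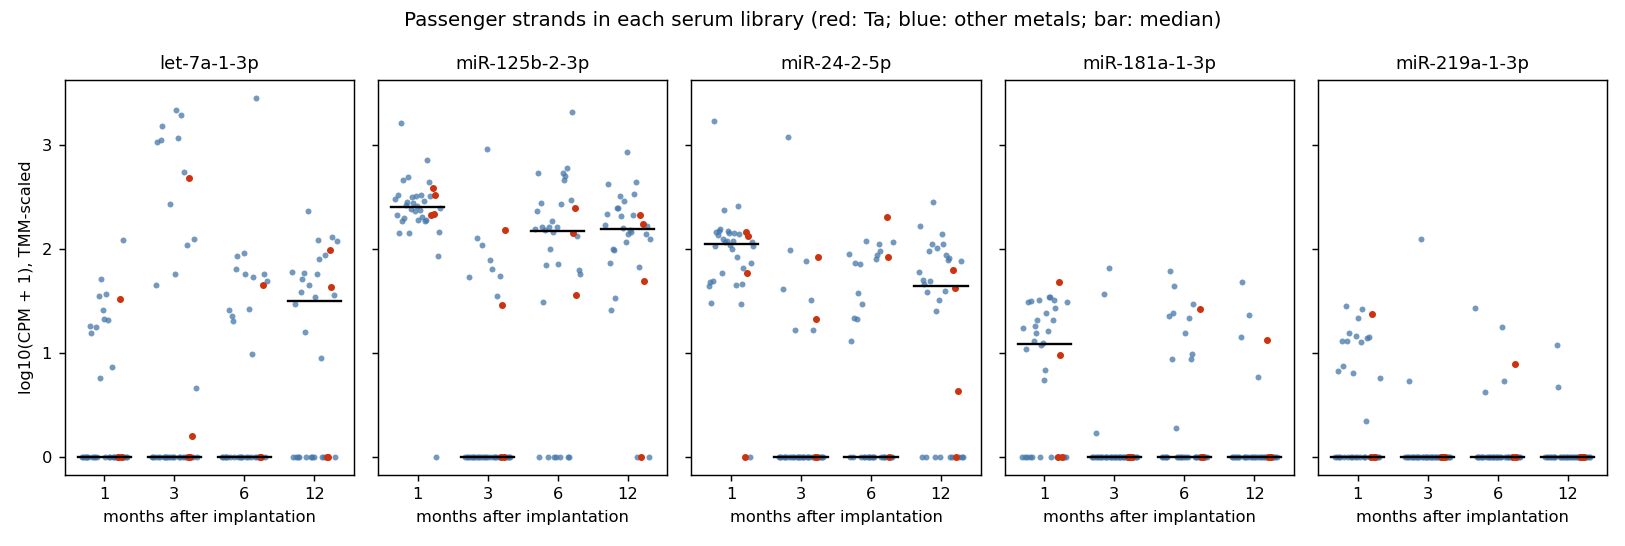
Level of each passenger strand in every library as log10(CPM + 1), by month after implantation; red points are Ta libraries, blue points the other metals, bars the medians, and points at the bottom are libraries listed at 0. The 3 mo median is 0 for all 5 strands, and libraries with a count of miR-125b-2-3p form a band well above the libraries at 0.

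Libraries with a count tended to be deeper at 3 mo: those with miR-125b-2-3p had a median of 939820 counts and those without 183535. The shares were therefore also computed at 1 depth, over the 35, 30, 34 and 31 libraries of 100000 or more counts at 1, 3, 6 and 12 mo. If each were reduced to 100000 counts, the expected share with a count of miR-125b-2-3p would be 97.1%, 33.2%, 79.2% and 93.3%, month by month. For miR-24-2-5p the shares would be 93.3%, 28.0%, 44.5% and 67.2%, and for let-7a-1-3p 29.8%, 41.9%, 37.2% and 58.1%. These values lie close to the observed ones. The rare strands depended more on depth: miR-181a-1-3p would be found in 49.4%, 6.45%, 25.5% and 10.99%, and miR-219a-1-3p in 27.6%, 4.42%, 7.59% and 2.86%. The order of the months was the same as in the observed shares for let-7a-1-3p, miR-125b-2-3p, miR-24-2-5p and miR-181a-1-3p. For miR-219a-1-3p, 3 and 12 mo changed places (observed 5.56% and 6.25% over all libraries).

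**Figure D2:**
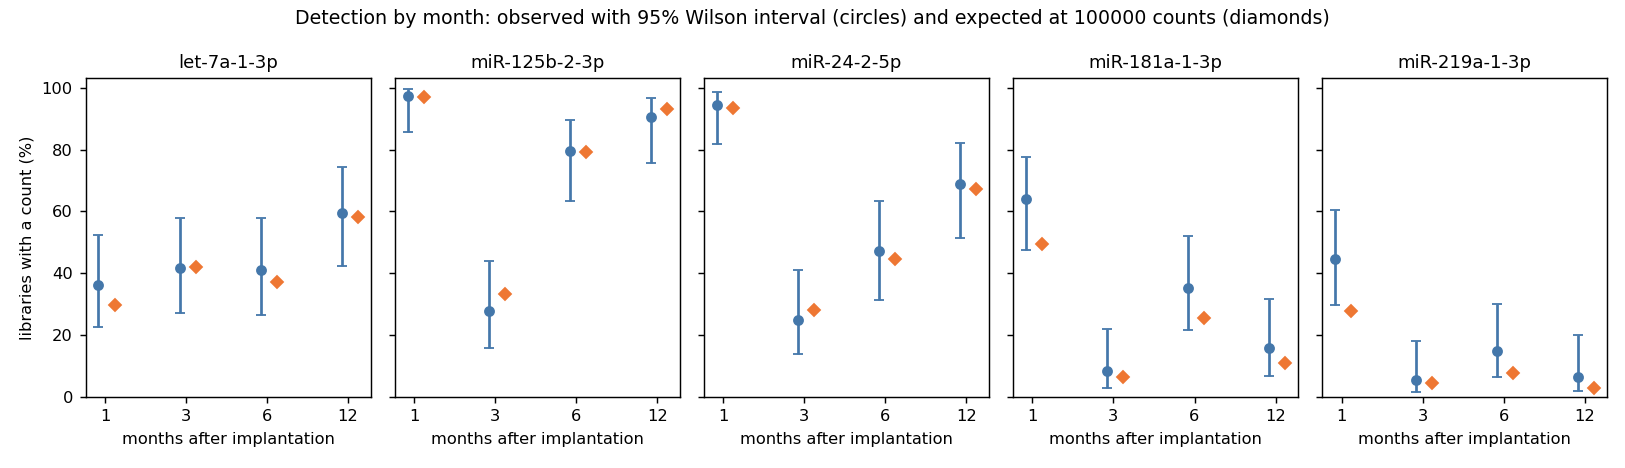
Share of libraries with a count of each passenger strand by month: circles give the observed percentage with its 95% Wilson interval over libraries, diamonds the percentage expected if libraries of 100000 or more counts were reduced to 100000 counts. For miR-125b-2-3p the values go from 97.2% and 97.1% at 1 mo to 27.8% and 33.2% at 3 mo, and for let-7a-1-3p they lie between 29.8% and 59.4%.

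Libraries without the strands also held fewer kinds of miRNA. At 3 mo, 16 of 36 libraries had 0 of the 5 strands, and these detected a median of 77.5 miRNAs, while the single library with all 5 had 4884425 counts and 251 miRNAs. At 1 mo, 0 of 36 libraries lacked all 5 strands. The part of depth and of the number of miRNAs detected in the month course of the strands was not tested.

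Fitted month-to-month differences are given for the same reason as a description. With edgeR across all 320 miRNAs that passed the filter on low counts, averaged with equal weight over the 8 metals sampled at every time point (Ta among them, Ni left out), the log2 differences from 1 to 3 mo were 5.06 for let-7a-1-3p, -4.81 for miR-125b-2-3p, -4.05 for miR-24-2-5p, -4.64 for miR-181a-1-3p and -3.50 for miR-219a-1-3p. An additive model with terms for metal and time point, added after seeing the data, gave smaller sizes for 5 of 5 members, such as -3.36 for miR-125b-2-3p and -2.66 for miR-24-2-5p. From 3 to 6 mo the values were -3.73 for let-7a-1-3p and 3.86 for miR-125b-2-3p, and the remaining 3 members could not be fitted. All 5 members had groups at 0 throughout, from 2 of 35 groups for miR-125b-2-3p to 19 of 35 for miR-219a-1-3p. At 3 mo 6 groups were at 0 for miR-181a-1-3p and 7 for miR-219a-1-3p, Ni among them. Fitted sizes of strands with groups at 0 depend on the model, and the counts of libraries above do not.

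At a Benjamini-Hochberg adjusted p under 0.05, the threshold used throughout, 5, 2, 1 and 3 of the 5 members passed in the steps from 1 to 3, 3 to 6, 6 to 12 and 1 to 12 mo. The shares of all miRNAs that passed were 43.8% (8.12% higher and 35.6% lower), 18.8%, 9.06% and 11.6%. In the additive model the shares of all miRNAs were 48.8% (10.3% higher and 38.4% lower) in the first step, 36.6% in the second and 10.3% in the third. The counts of members follow from how the members were chosen, and nothing is read from them.

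The guide strands were not chosen for their own change, and of 6 guides 5 passed the filter and were tested; miR-219a-5p did not. Between 1 and 3 mo 3 of these 5 were called, against 43.8% of all miRNAs. The guide let-7a-5p, a repressor of growth genes, rose from 14210 ± 7130 CPM (SD, n = 36) to 87570 ± 101900 CPM (n = 36), a log2 change of 2.40 ± 0.25 (SE; edgeR, adjusted p = 2.4468e-14). The means here take all metals, Ni included, while the log2 changes leave Ni out. Medians of let-7a-5p were 12990 CPM at 1 mo and 66070 CPM at 3 mo. The highest 3 mo value, 605500 CPM, came from Al replicate 3, a library of 7909 counts. The near twin of let-7a-5p, let-7c-5p, rose by 1.82 ± 0.30 (adjusted p = 2.628e-07). By contrast miR-24-3p, a guide of many blood and vascular cells, fell from 58360 ± 20880 to 22690 ± 14150 CPM (log2 -1.38 ± 0.21, adjusted p = 6.5586e-08).

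For these 3 guides the direction was that of the passenger strand. For miR-125b-5p (log2 -0.05 ± 0.35, adjusted p = 1) and miR-181a-5p (-0.25 ± 0.33, adjusted p = 0.784) no change was called between 1 and 3 mo, while libraries with a count of their passenger strands went from 35 to 10 and from 23 to 3. With RLE size factors (DESeq2's median-ratio scaling) these 2 values turned positive, at 0.40 and 0.22; that scaling moved the median of all miRNAs by 0.37 on the log2 scale in this comparison. The 3 called guides were past the threshold under every alternative run for them.

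Between 3 and 6 mo the same 3 guides were called, in the opposite direction: let-7a-5p fell by 1.48 on the log2 scale (SE 0.25, adjusted p = 2.5739e-06), let-7c-5p fell by 1.37 (SE 0.30, adjusted p = 0.000254) and miR-24-3p rose by 1.00 (SE 0.22, adjusted p = 0.000189). From 6 to 12 mo edgeR called 0 of 5 guides, with 1 at an unadjusted p under 0.05 (miR-24-3p, unadjusted p = 0.049974), and DESeq2 called 0. From 1 to 12 mo 2 were called, let-7a-5p (log2 0.70 ± 0.24) and miR-181a-5p (-0.96 ± 0.33), each with adjusted p = 0.041. Neither of these 2 calls was stable: over the alternatives the adjusted p of let-7a-5p ranged up to 0.404 and that of miR-181a-5p up to 0.276. DESeq2 called 2 further changes, miR-181a-5p between 3 and 6 mo (log2 -0.88, adjusted p = 0.0028551) and miR-125b-5p between 1 and 12 mo (0.94, adjusted p = 0.0144).

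Set against their guides, the members differed widely in level. Over all libraries the passenger strand was 0.224% of the summed counts of let-7a-1-3p and let-7a-5p, 2.86% of those of miR-125b-2-3p and miR-125b-5p, 0.121% of those of miR-24-2-5p and miR-24-3p, and 0.508% of those of miR-181a-1-3p and miR-181a-5p. By month, miR-125b-2-3p made up 5.72%, 1.445%, 2.64% and 1.63% of its pair at 1, 3, 6 and 12 mo. The shares of miR-24-2-5p were 0.169%, 0.16%, 0.0857% and 0.0722%, those of let-7a-1-3p 0.0681%, 0.383%, 0.134% and 0.173%, and those of miR-181a-1-3p 0.553%, 0.385%, 0.603% and 0.368%. Some of these pooled shares rest on 1 library. Pb replicate 2 holds 876 of the 1858 counts of let-7a-1-3p at 6 mo, and without it the share was 0.0714%. Without W replicate 1 the let-7a-1-3p share at 1 mo was 0.0416%, without DU replicate 2 the miR-181a-1-3p share at 3 mo was 0.172%, and without Co replicate 4 its share at 12 mo was 0.183%.

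Single libraries with ample guide were often listed at 0 for the passenger strand. From the ratio of summed counts at 1 mo, 26 of the 36 libraries at 3 mo held enough miR-125b-5p for an expected 10 or more counts of miR-125b-2-3p (median expectation 129.8 counts), and 16 of these 26 were listed at 0. At 6 mo the same ratio gave 33 such libraries with a median expectation of 314 counts, of which 6 were at 0. For miR-24-2-5p all 34 libraries at 6 mo had an expectation of 10 or more (median 78.1 counts), and 18 were at 0; at 1 mo 2 of 35 were. For let-7a-1-3p 13 of 26 such libraries at 3 mo were at 0, and the rest held up to 1935 counts. At 1 mo, the month that set the ratio, 7 of 13 were already at 0 for let-7a-1-3p. Where both strands had a count, in libraries with 100 or more counts of the pair, the passenger share varied widely, from 0.155% to 37.5% for miR-125b-2-3p and from 0.00201% to 10.76% for let-7a-1-3p.

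**Figure D3:**
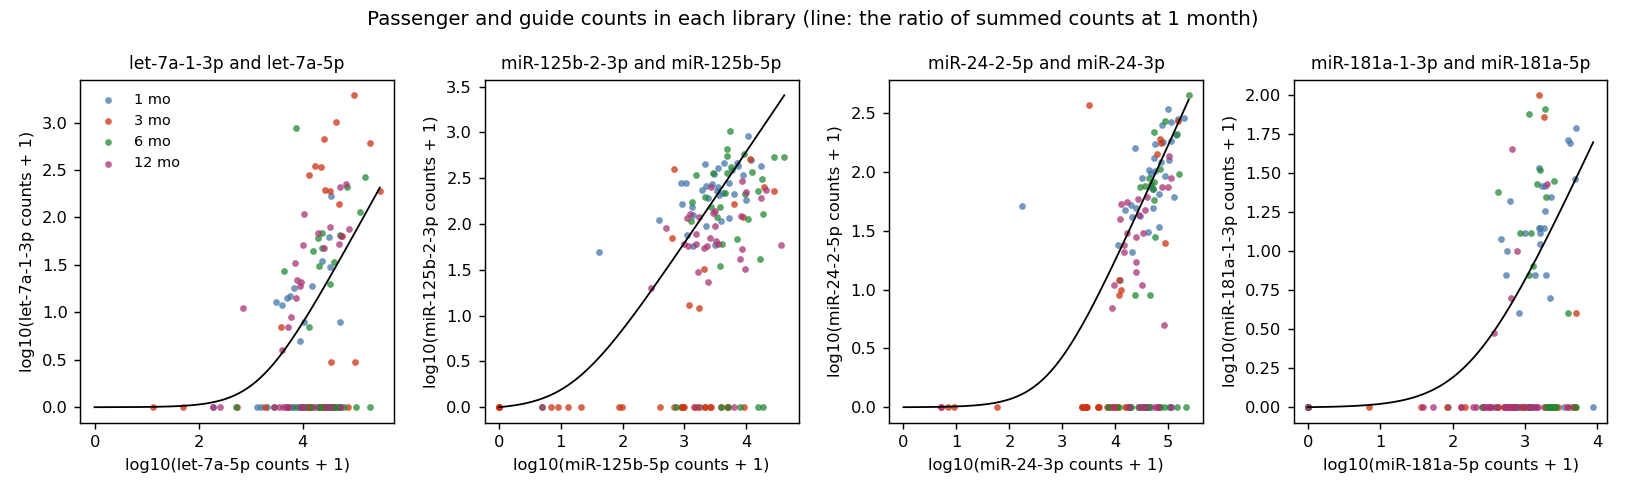
Counts of each passenger strand against counts of its guide in every library, both as log10(count + 1), coloured by month; the line is the ratio of summed counts at 1 mo. Among 3 mo libraries (red) with both strands and 100 or more counts of the pair, the median share was 0.557% for let-7a-1-3p and 1.38% for miR-125b-2-3p. The line, from all 1 mo libraries, stands for 0.06815 and 6.092 passenger counts per 100 guide counts in these pairs. Libraries without the passenger strand lie along the bottom.

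In a few libraries the passenger strand was out of proportion to its guide. Pb replicate 2 at 6 mo, a library of 156881 counts, held 876 counts of let-7a-1-3p, 7265 of let-7a-5p and 0 of let-7c-5p. In Co replicate 1 at 1 mo, with a total of 12213 counts, 48 counts of miR-125b-2-3p stood beside 40 of miR-125b-5p, and 50 of miR-24-2-5p beside 172 of miR-24-3p. Fe replicate 2 at 3 mo had 402 counts of miR-125b-2-3p and 670 of miR-125b-5p.

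For miR-219a the strand named as passenger was listed more often than the guide over all libraries, with both scarce. The strand named as guide, miR-219a-5p, had a count in 5 libraries (51 counts in all), and miR-219a-1-3p in 25 (427 counts). The passenger strand was above the guide in 24 libraries. Of its 427 counts, 104 were in DU replicate 1 at 3 mo, and 13 of its 25 libraries held fewer than 10 counts. At 12 mo the order was the other way, with 8 passenger counts in 2 libraries and 16 guide counts in 3. The Mir219a1 hairpin is shown because it holds both arms; the capitals mark miR-219a-1-3p, the 1 arm that the RefSeq table lists for it, and the sequence of miR-219a-5p starts at its base 21:
Mir219a1: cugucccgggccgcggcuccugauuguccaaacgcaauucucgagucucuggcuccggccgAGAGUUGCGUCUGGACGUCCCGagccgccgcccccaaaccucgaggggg
The sister strand miR-219a-2-3p had a count in 3 libraries, all at 1 mo.

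Ni has no 12 mo group and was left out of the fitted differences above. The choice of members covered all metals, so the Ni values of the members are also a description.

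The Ni values by library were as follows for let-7a-1-3p: 19.9, 0, 0 and 6.38 CPM at 1 mo, 1162, 0, 0 and 1938 CPM at 3 mo, and 25.25, 0, 8.835 and 52.8 CPM at 6 mo. The groups overlapped, through libraries at 0 in each of them. For miR-125b-2-3p the 4 libraries held 325, 200, 289 and 185 CPM at 1 mo. Their 3 mo values were 0, 63.5, 0 and 0 CPM, followed by 531, 453, 501 and 596 CPM at 6 mo. Listed values of this strand did not overlap between the 3 months. Every 3 mo value was below every 1 mo value, and every 6 mo value was above both. However, Ni replicate 3 at 3 mo held only 3343 counts in all, too few for its listed 0 to place it below the 1 mo libraries. How many of all miRNAs separate in this way was not counted.

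In Ni miR-181a-1-3p stood at 15.2, 33.2, 33.3 and 0 CPM at 1 mo, at 0 in all 4 libraries at 3 mo, and at 20.4, 7.66, 8.835 and 28.65 CPM at 6 mo. For miR-24-2-5p the values were 140, 43.8, 82.6 and 255 CPM, then 0, 75.9, 0 and 0, then 78.7, 85.4, 110 and 93.1. A single 3 mo library, Ni replicate 2, held the counts of both miR-125b-2-3p and miR-24-2-5p at that time. The guides were tested in the 12 Ni libraries on their own, and 2 of 15 tests were called, both of let-7a-5p. It was higher at 3 than at 1 mo (log2 2.94 ± 0.76, edgeR adjusted p = 0.0326) and lower at 6 than at 3 mo (-2.81 ± 0.76, adjusted p = 0.0358). Of all 195 miRNAs tested in Ni, 6.67% were called between 1 and 3 mo, 5.64% between 3 and 6 mo and 0% between 1 and 6 mo.

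Against Ta at a single time point, edgeR called 0 of 117 member tests over 31 comparisons, with 0.193% of all tests called and a smallest adjusted p of 0.185. At an unadjusted p under 0.05 stood 13 of the 117, and 760 of the 7240 tests of all miRNAs. By comparison, the share of all miRNAs called was 0.37% in Fe and in Pb at 1 mo, 1.2% in Co at 3 mo, 2.94% in Pb at 6 mo, 0.446% in W and in DU at 12 mo, and 0% in the other 25. In 12 of the 13 member tests the metal group was listed at 0 in every library. An example is miR-24-2-5p at 6 mo, with 201, 82.3 and 0 CPM in Ta and 0 in all 4 Fe and all 4 Pb libraries. Another is let-7a-1-3p at 6 mo, at 0, 0 and 43.8 CPM in Ta and at 0 in all Al and DU libraries. The groups overlapped at 0 in both examples. DESeq2 called 6 of the 117 (5.13%), against 4.72% of the tests of all miRNAs, all 6 in groups listed at 0: let-7a-1-3p in Al and Pb at 1 mo and in Al and DU at 6 mo, and miR-24-2-5p in Fe and Pb at 6 mo.

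The 1 other test at an unadjusted p under 0.05 was miR-24-2-5p in Co at 1 mo. The Co libraries held 1677, 104, 143 and 133 CPM and the Ta libraries 0, 144, 57.5 and 132 CPM (log2 2.71 ± 1.10, adjusted p = 0.476). Only Co replicate 1, the library of 12213 counts, was above the range of Ta.

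**Figure D4:**
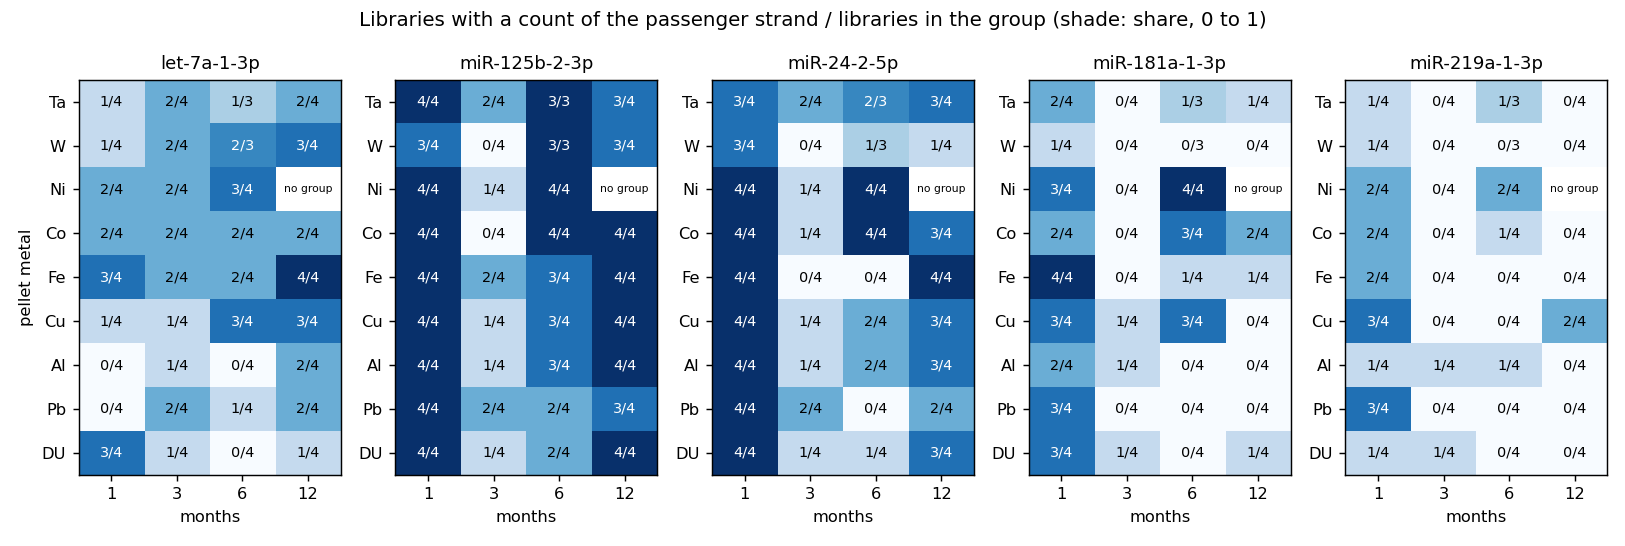
Libraries with a count of each passenger strand over libraries in the group, for each pellet metal (rows) and month (columns); darker shades are larger shares. At 3 mo let-7a-1-3p, miR-125b-2-3p and miR-24-2-5p were found in at most 2 libraries of any metal and the other strands in at most 1; compared with 1 mo, let-7a-1-3p was listed more often in 4 metals, less often in 2 and equally often in 3, and miR-125b-2-3p less often in 9 of 9.

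Averaged over time points, edgeR called 0 of 40 member tests against Ta (1.09% of all tests called), with 6 at an unadjusted p under 0.05 (15%, against 10% of the tests of all miRNAs). DESeq2 called 7 of the 40 (17.5%), all of metals with a whole group at 0, against 14.6% of the tests of all miRNAs. The share of all miRNAs called was 0.312% in Fe and in Cu, 4.38% in Pb, 3.75% in DU and 0% in the other 4 metals. All 8 tests each of miR-181a-1-3p and miR-219a-1-3p, 16 in total, could not be fitted, and both strands had many groups at 0 throughout. In the comparisons in which no group of the metal or of Ta was at 0 throughout, the log2 differences ran from 0.28 to 1.41 for let-7a-1-3p (W, Ni, Co, Fe and Cu; SE 1.26 to 1.48) and from -0.08 to 0.57 for miR-125b-2-3p (Ni, Fe, Cu, Al, Pb and DU; SE 0.865 to 1.06). For miR-24-2-5p they ran from -0.73 to 1.297 (Ni, Co, Cu, Al and DU; SE 1.07 to 1.27). With errors of this size a 2-fold difference from Ta could not be told from none.

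In the additive model 1 of the 40 tests was called, miR-219a-1-3p higher in DU than in Ta (log2 3.98 ± 1.43, adjusted p = 0.0417; 9.34% of all tests called in that model). Yet the strand had a count in 2 of 16 DU libraries and in 2 of 15 Ta libraries. Without DU replicate 1 at 3 mo, the library with 104 counts, the log2 difference was -1.99 (adjusted p = 0.129). The call was also lost without any 1 of 11 Ta libraries: replicates 1, 3 and 4 at 1 mo, replicates 1, 2 and 4 at 3 mo, replicates 1 and 3 at 6 mo, and replicates 2, 3 and 4 at 12 mo. Leaving out libraries other than that DU library gave log2 3.53 to 4.62 and adjusted p 0.0116 to 0.101.

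By metal, over all time points, W libraries had a count least often for 4 of the 5 strands: 9 of 15 for miR-125b-2-3p (12 of 15 in Ta), 5 of 15 for miR-24-2-5p (10 of 15), 1 of 15 for miR-181a-1-3p (4 of 15) and 1 of 15 for miR-219a-1-3p (2 of 15). The W libraries had a median of 1269637 counts against 539673 in Ta, and they detected a median of 162 miRNAs against 174. The part of either in these counts was not tested. For let-7a-1-3p the metal with the fewest was Al (3 of 16) and that with the most Fe (11 of 16), beside 6 of 15 in Ta. Mean levels had spreads as large as themselves: miR-125b-2-3p ran from 76.3 ± 78.2 CPM in W (SD, n = 15) over 144 ± 123 in Ta (n = 15) to 309 ± 518 in Pb (n = 16). Neighbours in that order did not differ beyond their spread.

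The passenger-to-guide ratio also gave no call against Ta. With log2((passenger + 0.5)/(guide + 0.5)) in libraries with 100 or more counts of the pair, permutation tests with 100000 resamples (two-sided, metals permuted within time points) called 0 of 40 tests, 0 had an unadjusted p under 0.05, and the smallest p was 0.0827 (adjusted p = 0.909). That smallest value was for miR-24-2-5p to miR-24-3p in W, where the mean log2 ratio was 2.40 below that of Ta (14 W and 14 Ta libraries; written as a difference, -2.40). The largest positive difference was that of let-7a-1-3p to let-7a-5p in Ni, at 1.68 (p = 0.302 by permutation). The miR-219a pair was not tested, since 1 library reached 100 counts. The 40 tests take the let-7 row against let-7a-5p and again against let-7c-5p, so they are not all of distinct strands.

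**Figure D5:**
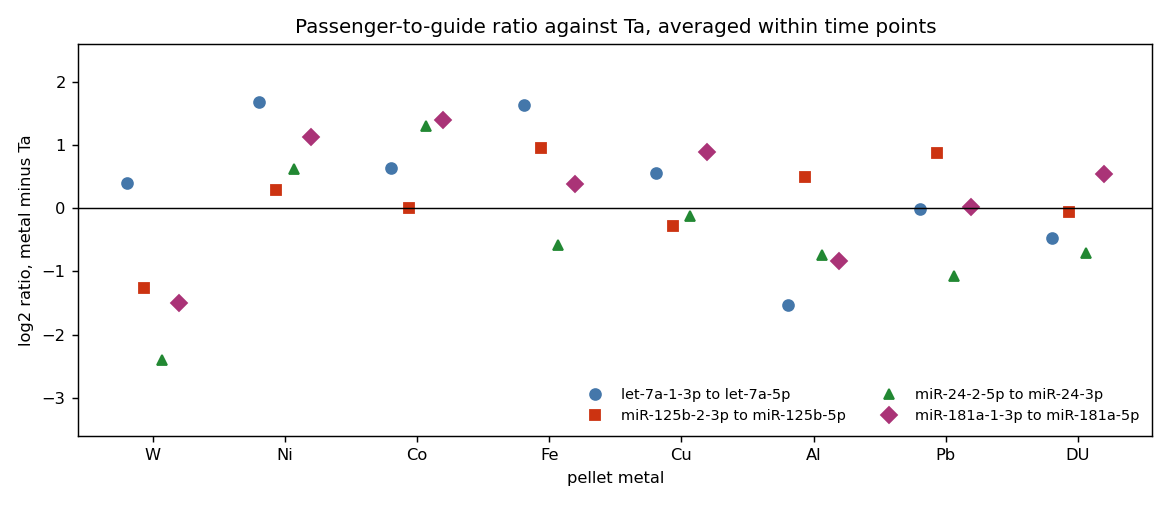
Mean log2 ratio of passenger to guide counts in each metal minus that in Ta, averaged within time points; each marker is 1 pair, drawn without an error bar. The markers lie between -2.40 and 1.68, and 0 of the tests behind them was past the threshold. The let-7 row is drawn against let-7a-5p only.

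The sister strands followed the members in part. miR-125b-1-3p had a count in 30, 8, 17 and 20 libraries at 1, 3, 6 and 12 mo, and 72 of its 75 libraries also had miR-125b-2-3p; summed counts were 6.97 times higher for miR-125b-2-3p. For miR-181a the 2 precursors gave like totals (1025 counts of miR-181a-1-3p and 978 of miR-181a-2-3p), but the strands shared 21 libraries, with 22 holding the first alone and 15 the second alone. miR-24-1-5p was found in 9 libraries, all of which also had miR-24-2-5p, at 69 counts against 7886. let-7c-1-3p had a count in 3 libraries, and let-7a-2-3p was not analysed here.

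Products of neighbouring hairpins were compared across the same months. Of 15 cluster neighbours of the members 13 passed the filter, and between 1 and 3 mo 3 were called higher and 4 lower (median log2 -0.50 over the 10 that could be fitted, against -1.48 over all miRNAs, of which 43.8% were called). In the additive model 3 were called higher and 6 lower, and the median over all 13 was -1.11, against -1.21 over all miRNAs. Those that rose were the let-7 guides let-7f-5p (1.67 ± 0.25, adjusted p = 2.9334e-08) and let-7d-5p (1.21 ± 0.30, adjusted p = 0.00035), beside let-7a-1-3p on chromosome 17, and let-7b-5p (1.63 ± 0.29, adjusted p = 1.659e-06), beside let-7c-2-3p on chromosome 7. Those that fell were miR-99a-5p (-1.48 ± 0.33), of the miR-125b-2 cluster, and miR-23a-3p (-1.62 ± 0.35), miR-27a-3p (-1.003 ± 0.37) and miR-27a-5p (-2.92 ± 0.72) beside miR-24-2-5p (adjusted p from 4.6865e-05 to 0.0205). Between 3 and 6 mo 3 were called higher (miR-99a-5p, miR-23a-3p and miR-27a-5p) and 2 lower (let-7f-5p and let-7b-5p), and edgeR called 0 from 6 to 12 mo (0 at an unadjusted p under 0.05) and 0 from 1 to 12 mo (1 at an unadjusted p under 0.05, let-7f-5p). The additive model called 1 and 0 there.

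Other products of numbered precursors were counted in the same way. Of 26 such rows 11 passed the filter, and 4 were called between 1 and 3 mo, all lower, beside 43.8% of all miRNAs: miR-664-2-5p (log2 -4.35 ± 0.93), miR-125b-1-3p (-3.01 ± 0.82), miR-181a-2-3p (-4.91 ± 1.05) and miR-30c-2-3p (-5.22 ± 1.07), with adjusted p from 2.727e-05 to 0.00117. Without replicate 2, and without replicate 3, 2 were called. The other 7 could not be fitted in that comparison, so a median over the list would hold only those called. In the additive model, which fitted all 11, 5 were called, all lower, beside 48.8% of all miRNAs. The median was -2.78, against -1.21 over all miRNAs. Those 5 were miR-664-2-5p, miR-30c-2-3p, miR-17-1-3p, miR-181b-1-3p and let-7f-1-3p. Not called in that edgeR model were miR-125b-1-3p (log2 -1.32, adjusted p = 0.189) and miR-181a-2-3p (-4.59, adjusted p = 0.255). At 3 mo miR-181a-2-3p and miR-30c-2-3p each had a count in 1 of 36 libraries.

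Over the 35 group means of log2 CPM, the miRNAs most like each member were ranked by Spearman's rho as a description; the points share depth and month. For let-7a-1-3p they were miR-21-5p (0.69), let-7f-5p (0.49) and miR-3559-3p (0.47), and the guide let-7a-5p stood at 0.42. For miR-125b-2-3p they were miR-145-5p (0.85), miR-183-5p (0.85) and miR-125a-3p (0.85), with 0.26 for its guide. For miR-24-2-5p they were miR-455-3p (0.87), miR-322-3p (0.85) and miR-10b-3p (0.83), with 0.60 for its guide. For miR-181a-1-3p the list was miR-10b-3p (0.76), miR-145-5p (0.74) and miR-322-3p (0.74), and for miR-219a-1-3p miR-542-3p (0.79), miR-455-3p (0.72) and miR-10b-3p (0.71).

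Summed levels of cell type markers were set beside these values. The summed level of 5 platelet and leukocyte miRNAs, all found at every time point and with the guide miR-24-3p among them, had a median of 298700 CPM at 1 mo (range 102900 to 1231000), 62570 at 3 mo (9184 to 460700), 244500 at 6 mo (30350 to 913200) and 170500 at 12 mo (48650 to 1027000). For 5 erythrocyte miRNAs in the table the medians were 4007, 4997, 4304 and 3101 CPM (ranges 1174 to 8991, 0 to 741400, 735.5 to 35060 and 1356 to 10670). Without libraries under 20000 counts the erythrocyte range at 3 mo was 204.8 to 20860 CPM. For 5 liver miRNAs they were 70620, 70340, 91820 and 211000 CPM (26610 to 198200, 8557 to 220200, 17720 to 395500 and 76700 to 449900). The 5 skeletal muscle miRNAs had medians of 408, 1233, 1449 and 887 CPM (each range from 0, up to 14700, 30290, 26650 and 26550), with miR-499-5p at 0 in every 3 mo library. The 5 neuronal ones had medians of 5.33, 0, 0 and 5.56 CPM (each range from 0, up to 3931, 33230, 10280 and 607.4), with miR-219a-5p at 0 in every 3 mo library. The part of these cell types in the month course of the passenger strands was not tested, and in serum fewer cells that release a miRNA and less release per cell cannot be told apart.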

How the data were processed

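Small RNA of rat serum was sequenced after Norgen library preparation on a NextSeq 500, per the labels' protocols. The deposited table holds raw counts per mature miRNA for 471 miRNAs in 35 groups of libraries. The submitters' processing notes name the build Rnor 6.0; which aligner, counter and miRBase version were used is not given in the sources used here. Table columns were matched to samples by title, and 0 columns of sample values were left unused.

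Counts were tested with edgeR 4.0.16 (quasi-likelihood test, R 4.3.3, limma 3.58.1) on all libraries or, for single time points and Ni, on theirs. The filterByExpr filter (minimum count 10, minimum total 15) came before TMM scaling. It left 320 miRNAs over all libraries, and p-values were adjusted by Benjamini-Hochberg over all miRNAs of a comparison (threshold 0.05). Each edgeR SE was derived from the log2 value and the F statistic of its test. Where that SE was not finite or was above 20, a cutoff set here, the value is called not fitted. The edgeR tests were run on simulated counts drawn from a common proportion per miRNA. No group was set to 0 there, so that run does not bear on strands with whole groups at 0. Ratios used permutation tests (scipy 1.17.1), shares of libraries 95% Wilson intervals, which like all intervals here cover counting error over libraries only.

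Alternatives were DESeq2 1.42.0, RLE size factors, no filter, a replicate block, each replicate number left out, no libraries under 20000 counts, and 1 row of each set of identical rows. Replicate numbers were not taken to pair a metal with Ta. In 2 of 31 such comparisons within a time point every same-numbered pair had a correlation of deviations over 0.1. Same-numbered libraries of different months were not compared, so this does not bear on repeat samples of a rat.

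The text names the members, their guides, sister strands, cluster neighbours, other numbered products called between months, and for each member the 3 miRNAs most like it by Spearman's rho. Members and lists were chosen with earlier results of these data known. Sequences and positions come from RefSeq (GRCr8), where 434 of 471 names matched; positions on the authors' build are not given.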

Additional observations from a re-analysis of the deposited data

Results flagged for a closer look

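Among 28 groups of 4 libraries with a count of a strand in every library, 2 held a library far from the other 3. Chance alone gives about 1 such library in 20 groups.

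In Co at 1 mo, replicate 1 had 1677 CPM of miR-24-2-5p and the others 104.4, 143.4 and 133. This library had 12213 counts in all, 50 of them of miR-24-2-5p. In Fe at 12 mo, replicate 4 had 208.5 CPM of miR-125b-2-3p and the others 138.6, 149.8 and 142.2.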

How the results depend on the processing

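Against Ta, calls of members went from 0 at single time points to 6 with DESeq2, and averaged over time points from 0 to 7 with DESeq2, 1 without a filter (let-7a-1-3p in Al) and 1 in the additive model of metal and time. Between time points in Ni edgeR called 0 of 12 member tests (6 at an unadjusted p under 0.05), 3 were called without a filter and 3 with DESeq2, and 0 to 5 with a replicate left out; nothing is read from these or from the other member counts between months, since the members were chosen for such changes. The cause was not tested. The additive model, its left-out libraries and the libraries left out of pooled shares were chosen after seeing the data.

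Guides called between 1 and 12 mo numbered 2. They were 1 with RLE size factors, 0 without a filter, 1 with the replicate block, 1 without libraries under 20000 counts, 1 with 1 row of each identical set, and 0 to 1 with a replicate left out. Members past the threshold ranged with a replicate left out from 2 to 4 between 1 and 3 mo (5 in the fit of all libraries), 1 to 2 between 3 and 6 mo (2), 0 to 1 between 6 and 12 mo (1) and 0 to 3 between 1 and 12 mo (3). Between 6 and 12 mo they were 2 without a filter, 2 with DESeq2 and 0 in the additive model. Other numbered products called in any comparison numbered 4 of 11, beside 50.6% of all miRNAs. With a replicate left out 2 to 4 were called. In the additive model 7 were, beside 60% of all miRNAs.

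Small guide changes, none of them called, turned sign. Between 1 and 3 mo miR-125b-5p was 0.40 with RLE and 0.39 with DESeq2, and ranged from -0.47 to 0.023 with a replicate left out; miR-181a-5p was 0.22 with RLE and 0.25 with DESeq2. Between 6 and 12 mo let-7c-5p was -0.037 with RLE, -0.042 without a filter, -0.038 with DESeq2, -0.028 with the block, -0.049 without libraries under 20000 counts, and -0.18 to 0.28 with a replicate left out; miR-181a-5p ranged from -0.44 to 0.24 with a replicate left out. Between 1 and 12 mo miR-24-3p was -0.072 without a filter, -0.025 without libraries under 20000 counts, -0.017 with 1 row of each identical set, and -0.13 to 0.051 with a replicate left out.

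With the replicate number as a block, members called against Ta stayed at 0 at single time points and 0 on average, and guides called were 3, 3, 0 and 1 in the 4 month comparisons. Within a time point the numbers did not, as a rule, pair a metal with Ta (median of the lowest correlations -0.09). Pairing across months was not checked. Leaving out single libraries where a member was called against Ta was not run for the edgeR fit of groups, since it called none.

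A listed 0 can stand for 1 read, whole groups at 0 could not be fitted in some comparisons, 6 libraries had under 20000 counts, and repeat samples of a rat were treated as independent. The guides of several precursors share 1 row, so strand ratios of single hairpins are out of reach.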
